A study of Homo sapiens with 42 samples.

Results

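Human mitochondrial DNA encodes 22 tRNAs, and the 9 described here are those read from the heavy strand that lie beyond the methionine tRNA MT-TM. They are MT-TW, MT-TD, MT-TK, MT-TG, MT-TR, MT-TH, MT-TS2, MT-TL2 and MT-TT, which carry tryptophan, aspartate, lysine, glycine, arginine, histidine, serine, leucine and threonine. They were taken as the rows on the mitochondrial chromosome that hold one of these symbols and span at most 500 bases, which gave 9 rows among 175946 in the count table. The heavy strand is copied into a long precursor in which tRNAs stand between the messenger and ribosomal RNAs; the mitochondrial RNase P cuts before a tRNA and ELAC2 after it, and the CCA end is then added by a separate enzyme.

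The study sequenced small RNA with and without repair of RNA ends by Antarctic phosphatase and polynucleotide kinase, called plus PNK and minus PNK here. PNK makes fragments with a blocked or missing phosphate fit for adapter ligation. Counts for 30 libraries were compared, 3 in each of 10 groups: plus PNK and minus PNK libraries of A4, A7, E4 and G8, which the labels describe as THP-1, a human monocytic leukaemia line, in a study of POLR3G and POLR3GL knockouts, and of mock, which the labels describe as HEK293T, a human embryonic kidney line, given a control antisense oligonucleotide at 200 nM. Either protein can serve as a subunit of RNA polymerase III, which does not copy mitochondrial DNA. Which of them is missing from A4, A7, E4 or G8, and whether each is a single clone, is not stated in the labels, and neither gene has a row that could check it. The other 12 samples of the labels, among them the THP-1 libraries named con, are not analysed here. Nothing in the labels says that the 3 libraries of a group came from separate cultures, so the p-values rest on the spread from library to library, which may be technical.

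Rows kept so that no pair overlaps summed to 5546122 to 7873016 counts per library plus PNK and 9659792 to 13275667 minus PNK. In minus PNK libraries the 6 haematopoietic miRNAs examined summed to 12142 to 18802 CPM (the usual abbreviation for counts scaled to the library total) in the libraries labelled mock, within the 10193 to 25621 of A4, A7 and E4. All 6 were above 0 in each of these libraries. In the libraries labelled mock the largest part was MIR21, at 6813 to 10731 CPM, while MIR142 had 1766 to 3482 and MIR223 376 to 502. In A4, A7 and E4 MIR142 had 1558 to 4174 CPM and MIR223 264 to 667. Plus PNK they summed to 183 to 199 CPM in the libraries labelled mock, below the 216 to 392 of A4, 478 to 755 of A7 and 465 to 492 of E4. Of the 6 miRNAs listed for the HEK293T kind, 5 were above 0 in every library of these groups, and MIR375 had at most 0.382 CPM. The 6 summed minus PNK to 342 to 534 CPM in the libraries labelled mock and 230 to 862 in A4, A7 and E4. In the libraries labelled mock MIR7-1 alone had 321 to 504. The 6 epithelial miRNAs summed in any library to at most 88.3 CPM. The minus PNK levels of the haematopoietic miRNAs go against the HEK293T label, so the group is called the libraries labelled mock, and the part of this in the comparisons with mock was not tested. G8 libraries 1 and 2 also stood apart: miRNA was 2.26% and 2.12% of their minus PNK counts and 19.0% of those of library 3, and results that rest on G8 are given with and without them.

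The 9 genes are 59 to 71 bases long with a GC content of 23.1% to 45.8%. Each row equals the gene in the GENCODE annotation of GRCh38, on the + strand of the reference. MT-TH, MT-TS2 and MT-TL2 touch with no base between them, at chrM:12138-12206, chrM:12207-12265 and chrM:12266-12336, between MT-ND4 and MT-ND5, and are shown because their shared boundaries bear on every count of them. MT-TK (chrM:8295-8364, between MT-CO2 and MT-ATP8), MT-TD (chrM:7518-7585, before MT-CO2) and MT-TW (chrM:5512-5579, after MT-ND2) are shown because the remaining results turn on them. The sequences are those of the GENCODE transcripts, 5′ to 3′, without the CCA that is added later. Capitals mark the anticodon, found as the 3 loop bases that read the named amino acid, above a stem of at least 4 pairs; no such loop was found by this search in MT-TS2, the serine tRNA that lacks the D arm in mammals, and it is printed without capitals.
MT-TH: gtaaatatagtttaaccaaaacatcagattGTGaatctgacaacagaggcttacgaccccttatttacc
MT-TS2: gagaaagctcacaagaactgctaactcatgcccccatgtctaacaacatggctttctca
MT-TL2: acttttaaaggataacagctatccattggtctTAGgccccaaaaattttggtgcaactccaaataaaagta
MT-TK: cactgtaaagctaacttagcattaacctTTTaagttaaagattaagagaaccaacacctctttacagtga
MT-TD: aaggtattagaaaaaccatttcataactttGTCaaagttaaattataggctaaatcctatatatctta
MT-TW: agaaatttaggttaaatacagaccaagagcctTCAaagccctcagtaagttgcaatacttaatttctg

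The other 3 lie alone or beside a light-strand gene. MT-TG (chrM:9991-10058) and MT-TR (chrM:10405-10469) flank MT-ND3, and MT-TT (chrM:15888-15953) ends 2 bases before the light-strand MT-TP. MT-TD stands 3 bases from the light-strand MT-TS1 and MT-TW 7 bases from the light-strand MT-TA. Counts ignore strand: in 31 of 31 cases a row on the other strand that contains a mitochondrial tRNA had at least its count in every library. Sense and antisense RNA of these genes can therefore not be told apart.

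Together the 9 tRNAs held 1.46% to 2.56% of a plus PNK library (median 2.15%) and 0.0838% to 0.217% of a minus PNK library (median 0.130%). Of the counts of all 22 mitochondrial tRNAs they made up 51.2% to 68.1% plus PNK (median 54.8%) and 35.3% to 57.2% minus PNK (median 44.1%). In plus PNK libraries the 2 highest of these shares were those of G8 libraries 1 and 2, at 68.1% and 64.1%, against 54.6% in G8 library 3. Fewer mitochondria per cell and less tRNA per mitochondrion cannot be told apart in such bulk samples. MT-RNR1 and MT-RNR2, the mitochondrial rRNAs, had a median of 3.44% and 2.67% of plus PNK counts, against 0.0548% and 0.0461% minus PNK. The MT-RNR2 row was not among the rows kept, so its count is set against a total that does not hold it. The mitochondrial messenger RNAs have no rows of their own here.

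Levels per base, from here on as CPM scaled by TMM factors over the 15 libraries of an arm and divided by gene length, spread widely among the 9. Plus PNK, MT-TS2 came first with 122 ± 27.0 CPM per base, followed by MT-TL2 with 94.4 ± 20.03, MT-TH with 58.2 ± 17.9 and MT-TK with 34.4 ± 9.43 (SD, n = 15). The other 5 were far lower, with MT-TT at 5.38 ± 1.33, MT-TW at 4.64 ± 2.66, MT-TG at 3.23 ± 0.887, MT-TD at 2.51 ± 1.08 and MT-TR at 2.13 ± 0.642 CPM per base. Of the 8 steps between neighbours in this order, only that from MT-TK to MT-TT left no overlap between libraries: the lowest MT-TK value, 17.4, lay above the highest MT-TT value, 8.51. Minus PNK, MT-TS2 was again first at 8.75 ± 1.48 CPM per base, but MT-TH, at 6.12 ± 0.923, stood above MT-TL2, at 2.82 ± 0.797. The MT-TS2 level includes reads that are also counted in MT-TH and MT-TL2, as given below, so it is not a level of MT-TS2 alone. MT-TK had 1.56 ± 0.668, MT-TT 0.777 ± 0.150, MT-TW 0.343 ± 0.134, MT-TD 0.304 ± 0.0746, MT-TR 0.278 ± 0.0588 and MT-TG 0.267 ± 0.117 CPM per base, and all neighbours in this order overlapped in range. CPM values of the 2 arms are scaled separately and are not compared with each other.

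**Figure D1:**
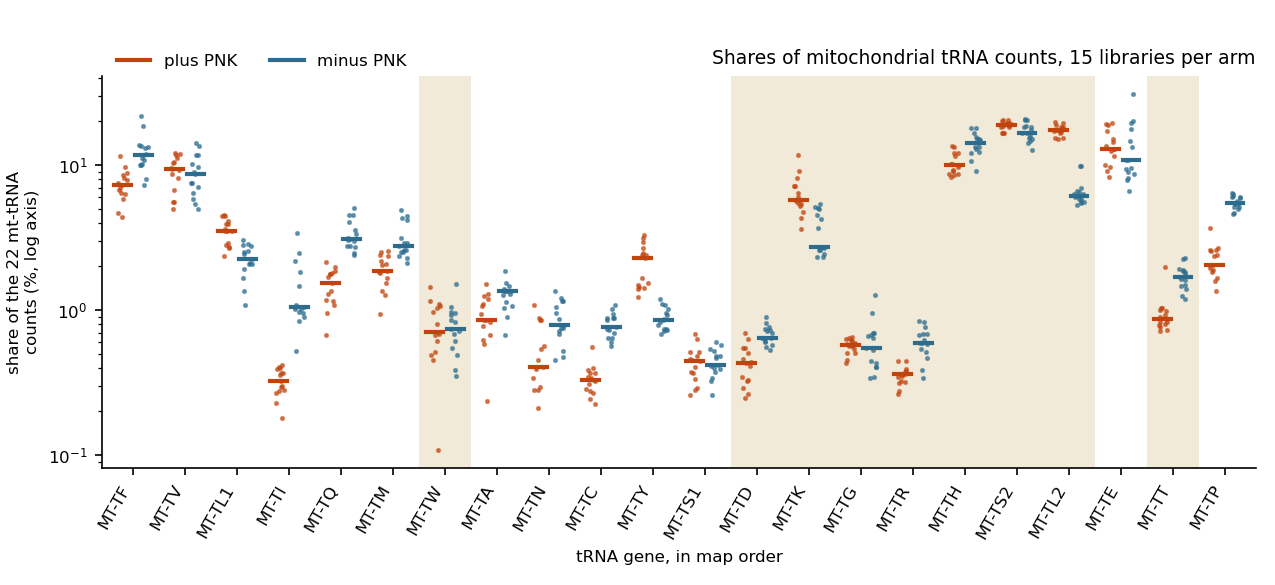
Share of the summed counts of the 22 mitochondrial tRNAs held by each (percent, log axis), in map order, in 15 plus PNK and 15 minus PNK libraries; points are libraries, bars medians, and the shaded genes are the 9 described. MT-TL2 lies at 15.2% to 19.8% plus PNK and 5.29% to 9.93% minus PNK with no overlap, while MT-TH lies lower plus PNK.

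The first comparison asks what end repair adds to each tRNA. Because most features differ between plus and minus PNK libraries, the share of each tRNA among the 22 mitochondrial tRNAs was compared, a measure free of library scaling, with an exact permutation of the arms within each of 5 groups and Benjamini-Hochberg adjustment over the 22 tRNAs. This test called 7 of the 9, against 77.3% of all 22, so the number called is no result about the 9. The leucine tRNA MT-TL2 changed most: it held 15.2% to 19.8% plus PNK (median 17.5%) and 5.29% to 9.93% minus PNK (median 6.14%). No library of one arm overlapped the other, in any group. The mean difference was 10.9 percentage points (adjusted p = 2.29e-06, from the smallest p this exact test can give, 6.25e-07).

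MT-TK, the lysine tRNA, also rose, by a mean of 2.85 percentage points (adjusted p = 4.24e-05), with 3.60% to 11.8% plus PNK and 2.32% to 5.38% minus PNK. Its values varied by group. MT-TK had shares of 7.16%, 8.20% and 6.01% plus PNK and 2.72%, 2.66% and 2.44% minus PNK in A7, and 5.68%, 5.75% and 7.22% plus PNK and 2.61%, 2.32% and 2.70% minus PNK in E4, with no overlap in either group. In A4 it had 4.78%, 3.60% and 6.37% plus PNK and 2.60%, 2.32% and 3.68% minus PNK, which overlap. In the libraries labelled mock it had 4.34%, 5.36% and 5.50% plus PNK and 5.01%, 5.13% and 4.49% minus PNK, which overlap. In G8 it had 11.8%, 9.08% and 5.26% plus PNK and 4.26%, 5.38% and 5.05% minus PNK, and the high values are those of libraries 1 and 2. Whether the groups differ in this change was not tested. MT-TS2 rose by 1.70 points (adjusted p = 0.0255), with a median share of 19.0% plus PNK and 16.7% minus PNK. Its groups did not move alike. Its 3 plus PNK shares lay above its 3 minus PNK shares in A4 and mock, A7 and G8 overlapped, and E4 had a mean of 16.6% plus PNK and 18.2% minus PNK, a difference of -1.55 points within overlapping values. The MT-TS2 call ended when A7 minus PNK library 1 (adjusted p = 0.0542) or E4 minus PNK library 2 (0.0539) was left out, and within the sum of the 9 alone the MT-TS2 share changed by -3.88 points. The call also ended with replicate numbers as a block (adjusted p = 0.0545). Without G8 libraries 1 and 2 the mean differences were 10.98 points for MT-TL2, 2.13 for MT-TK and 1.74 for MT-TS2.

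Shares of 4 members fell. The histidine tRNA MT-TH held 8.32% to 13.6% plus PNK (median 10.1%) and 9.12% to 18.1% minus PNK (median 14.2%), a mean change of -3.72 points (adjusted p = 7.17e-05). Its arms did not overlap in A7, E4 and G8 but overlapped in A4 and mock. MT-TT changed by -0.757 points (adjusted p = 2.50e-05), and its 3 plus PNK shares lay below its 3 minus PNK shares in each THP-1 group but not in the libraries labelled mock. MT-TR changed by -0.251 points (adjusted p = 1.38e-05), with no overlap in 4 of 5 groups, and MT-TD by -0.244 points (adjusted p = 4.87e-05), with no overlap in 3. The shares of MT-TW (0.0159 points, adjusted p = 0.899) and MT-TG (-0.0380 points, adjusted p = 0.667) did not pass the test. These are parts of a whole, so a tRNA can lose share without losing counts: as a share of all library counts, all 9 were higher plus PNK.

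The rank of MT-TH and MT-TL2 was thus reversed between the arms, with MT-TS2, first in counts per base, between them on the genome. MT-TL2 had 0.898 to 0.971 counts per MT-TS2 count plus PNK (median 0.926) and 0.292 to 0.530 minus PNK (median 0.398). MT-TH had 0.442 to 0.665 counts per MT-TS2 count plus PNK (median 0.524) and 0.713 to 0.894 minus PNK (median 0.825). Neither ratio overlapped between the arms. Each ratio is within a library and free of scaling.

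**Figure D2:**
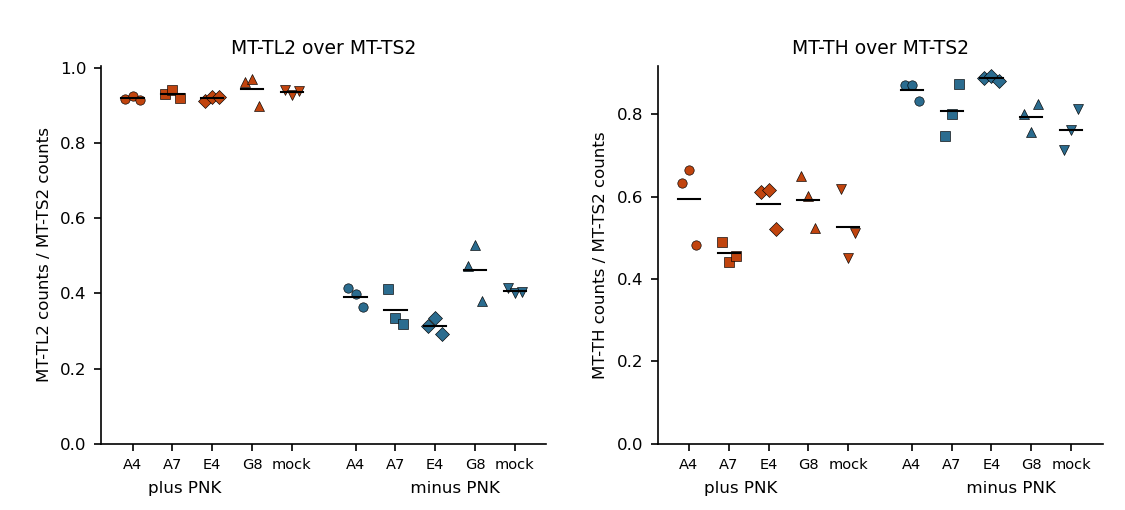
Counts of MT-TL2 (left) and of MT-TH (right) per count of MT-TS2, the gene between them, in each library of each group, plus PNK and minus PNK; horizontal bars are means of 3. MT-TL2 over MT-TS2 lies between 0.898 and 0.971 plus PNK and 0.292 and 0.530 minus PNK, and MT-TH over MT-TS2 between 0.442 and 0.665 plus PNK and 0.713 and 0.894 minus PNK.

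These 3 rows also share reads, because a read that crosses a boundary adds to the rows on both sides. An upper limit on the number of distinct reads over the 3 genes is given by a longer row, which reaches from MT-CO3 to the base before MT-TT, less the rows inside it that lie away from them. By that limit at least 75.6% to 84.3% of MT-TH counts minus PNK (median 81.6%) came from reads that also touched MT-TS2, and at least 47.7% to 73.4% of MT-TL2 counts minus PNK (median 58.3%). MT-TS2 lies between them and takes such reads from both sides. Minus PNK, at least 3718 of its 6396 counts in mock library 1 came from reads that also touched MT-TH, and 5469 of 7425 in A7 library 3. Plus PNK the same limit gave at least 0% to 29.6% for MT-TH and 0% to 49.4% for MT-TL2. The containing row also holds reads from elsewhere in both arms, so a low value does not show that few reads were shared. Whether fewer reads crossed the boundaries plus PNK was not tested. Of the summed counts of the 3 rows, at least 19.6% to 43.3% plus PNK and 45.9% to 50.5% minus PNK were repeat counts of a read. The counts do not say where a read ends, so reads over a whole boundary and reads that cross it by a few bases cannot be told apart. MT-TH, MT-TS2 and MT-TL2 are to that extent not independent measures, and the sum of the 9 is inflated by the same reads.

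In edgeR's quasi-likelihood test with TMM scaling, fitted for each group over all features (Benjamini-Hochberg adjustment, threshold 0.05), MT-TL2 was higher plus PNK in all 5 groups. The log2 fold change was 1.96 (SE 0.309, adjusted p = 1.83e-05) in A4, 1.37 (SE 0.323, adjusted p = 4.17e-05) in A7, 2.01 (SE 0.194, adjusted p = 1.75e-13) in E4, 1.40 (SE 0.492, adjusted p = 0.0145) in G8 and 1.05 (SE 0.388, adjusted p = 0.0133) in the libraries labelled mock. It stayed positive under all alternatives, with 0.10 to 0.52 and no call in A7, G8 and mock when every deposited row was counted. Leaving out plus PNK library 1 (adjusted p = 0.0957) or 3 (0.0602) or minus PNK library 2 (0.136) or 3 (0.0664) ended the call in G8, and leaving out minus PNK library 2 (0.0674) or 3 (0.0611) that in mock.

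In A4, 3 of the 9 were called, where 86.0% of all features were, and all 3 rose, as did 69.0% of features. MT-TS2 was the least at 0.73 (SE 0.300, adjusted p = 0.0299), and leaving out any of the 6 libraries ended its call (adjusted p up to 0.396). In A7, 4 were called against 92.0% of features: MT-TK and MT-TL2 rose (73.1% of features did) and MT-TH and MT-TT fell (18.9%), MT-TT by 0.89 (SE 0.286, adjusted p = 0.00244). In E4, 6 rose, against 90.5% of features called and 72.6% that rose. The least was MT-TD at 0.43 (SE 0.209, adjusted p = 0.0494), and leaving out any of the 6 libraries ended its call (adjusted p up to 0.621). In G8, 1 was called and it rose, against 89.0% of features called and 74.4% that rose. With replicate numbers as a block, 3 were called, MT-TL2 (adjusted p = 0.00109) and MT-TK (0.0149) higher and MT-TT (0.0419) lower. In the libraries labelled mock 4 were called against 79.5%: MT-TL2 rose (61.7% of features did), and MT-TT, MT-TR and MT-TD fell (17.8%), MT-TD by 1.93 (SE 0.374, adjusted p = 1.13e-05).

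The members' share of calls lay below that of all features in every group, and so did their size. The median log2 change of the 9 was 0.31 in A4, -0.35 in A7, 0.45 in E4, -0.10 in G8 and -0.52 in mock, against 2.67, 3.10, 3.05, 3.29 and 2.52 for all features tested. Each of the 9 lay below the median of all features in each group. This also held with DESeq2, its size factors, library totals, miRNA factors, every deposited row and the replicate block. With no filter on low counts 7 or 8 of 9 did. The filter bears on this median: it kept 6645 to 7865 features in these fits, but 1801 across the THP-1 groups minus PNK and 8617 plus PNK. Many features thus entered through plus PNK libraries, where they are high. Without the filter the medians of all features were 1.80 to 2.15. How the 9 compare with features that pass the filter in both arms was not tested. The sign of a member's change follows the scaling, which shifts all features together. In all 45 tests the member was called higher with library totals, where the medians of all features were 5.86 to 6.57. MT-TT in A7 then turned to 2.305, against a median of 6.04, and MT-TD in mock to 2.14, against 6.31. The miRNA factors, as run, counted a library's miRNA share more than once, so sizes and calls with them are not given here. What factors that count it a single time would give was not tested. With every deposited row counted the medians were 1.30 to 1.63, and of 28 calls 3 were higher and 25 lower, against 13 and 5 of 18 in the fits above. The medians of the 8 light-strand tRNAs were -0.06, -0.61, 0.29, -0.52 and -1.49 in A4, A7, E4, G8 and mock, and those of the 5 promoter-proximal heavy-strand tRNAs -0.46, -0.62, -0.08, -0.22 and -0.94. MT-RNR1, the small mitochondrial rRNA, had log2 changes of 1.71 to 2.76 in the 5 groups. RPPH1, the RNA of nuclear RNase P, passed the test in no group (-0.43 to 0.53), and RMRP, the RNA of RNase MRP, had -5.24 to -2.64.

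**Figure D3:**
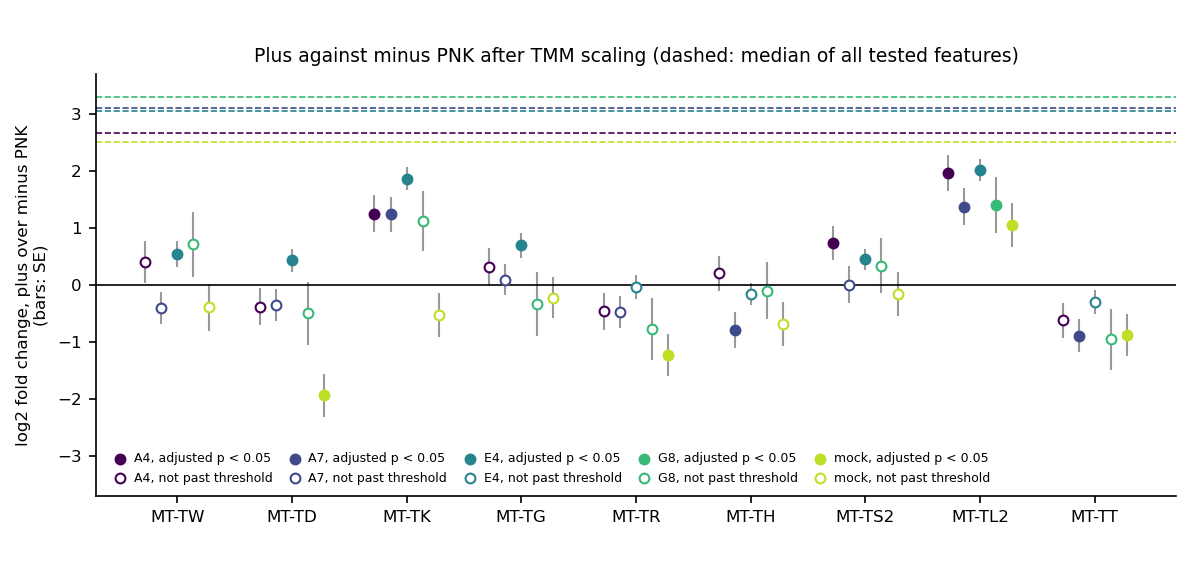
Log2 fold change, plus over minus PNK, of each of the 9 tRNAs in each group after TMM scaling, with SE bars; filled points passed an adjusted p of 0.05 in edgeR, and dashed lines mark the median of all tested features in each group. MT-TL2 is filled in all 5 groups, and each point lies below its group's dashed line at 2.52 to 3.29. Many features behind the dashed lines passed the filter on low counts through plus PNK libraries, where they are high.

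The second comparison asks whether the THP-1 groups differ among themselves. Plus PNK, 6 of the 9 (MT-TW, MT-TD, MT-TG, MT-TR, MT-TH and MT-TT) differed across A4, A7, E4 and G8 in edgeR, against 22.3% of all features tested. MT-TD had the widest spread between group means, 1.32 on the log2 scale (adjusted p = 0.0173), and MT-TT the least of those called, 0.70 (adjusted p = 0.0423). The MT-TD call ended without G8 library 2 (adjusted p = 0.0585), and that of MT-TT when any library but G8 library 3 was left out (adjusted p up to 0.1198). MT-TD had 203, 172 and 238 CPM in A4, 157, 142 and 223 in A7, 248, 260 and 311 in E4, and 75.0, 97.0 and 154 in G8. E4 libraries were all above those of A4, A7 and G8, and G8 overlapped A7. MT-TK, at 1618 to 3564 CPM over these libraries, did not pass (adjusted p = 0.923), nor did MT-TS2 (0.0518) or MT-TL2 (0.0634). Of the other mitochondrial tRNAs, 5 of 5 promoter-proximal and 6 of 8 light-strand tRNAs were called. MT-RNR1 did not pass (adjusted p = 0.525).

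By pairs, A4 was higher than G8 for 8 of the 9, all but MT-TK, against 15.1% of features called and 9.81% called higher, and E4 was higher than G8 for 5 (MT-TW, MT-TD, MT-TG, MT-TR and MT-TT) against 11.3% called and 6.36% called higher. From A4 over G8, the log2 fold change was 1.07 for MT-TW (SE 0.343, adjusted p = 0.0487) and 0.66 for MT-TT (SE 0.196, adjusted p = 0.0352). From E4 over G8 it was 1.32 for MT-TD (SE 0.274, adjusted p = 0.00812) and 0.70 for MT-TT (SE 0.196, adjusted p = 0.0323). MT-TR, the arginine tRNA, had 174, 170 and 164 CPM in A4, 124, 119 and 128 in A7, 203, 214 and 163 in E4 and 80.1, 76.8 and 121 in G8, so that A4 and E4 lay above both A7 and G8 without overlap. MT-TW had 545, 545 and 234 CPM in A4, 245, 201 and 250 in A7, 525, 687 and 358 in E4 and 296, 188 and 152 in G8, where A4 library 3 fell among the G8 values. A4 was also higher than A7 for MT-TH (0.98, SE 0.232, adjusted p = 0.0136) and MT-TG (0.74, SE 0.199, adjusted p = 0.0235), 2 of 9 against 13.6% of features called and 8.72% called higher. MT-TH had 5762, 7186 and 4767 CPM in A4 and 3269, 2835 and 2935 in A7, and MT-TG, the glycine tRNA, had 289, 296 and 262 in A4 and 163, 143 and 203 in A7, neither with overlap. These calls ended for MT-TH without A4 library 2 or A7 library 2 or 3 (adjusted p up to 0.0658), and for MT-TG without library 1 or 2 of A4 or A7 (up to 0.1196). For A4 over G8, leaving out any library but A4 library 3, E4 library 3 or G8 library 1 ended the MT-TW call (up to 0.163). The MT-TT call ended in 7 of 12 such fits for A4 over G8, those without any A4 library, A7 library 1, E4 library 1 or 2 or G8 library 1 (up to 0.127), and in 4 for E4 over G8, those without any E4 library or G8 library 1 (up to 0.111). None of the 12 such fits kept all 8 calls for A4 over G8: 1 was left without G8 library 1 or 2, 2 without A4 library 1 or 2 or E4 library 1, and at most 6 in the rest. For E4 over G8, 2 of the 5 calls were left without E4 library 1 or 2 and 3 without E4 library 3 or G8 library 1 or 2, while the other 7 fits gave 5. No member was called between A4 and E4 (9.68% of features called), A7 and E4 (0.0928%) or A7 and G8 (8.30%); at an unadjusted p under 0.05 there were 0, 6 and 1, and DESeq2 called 2, 1 and 0.

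**Figure D4:**
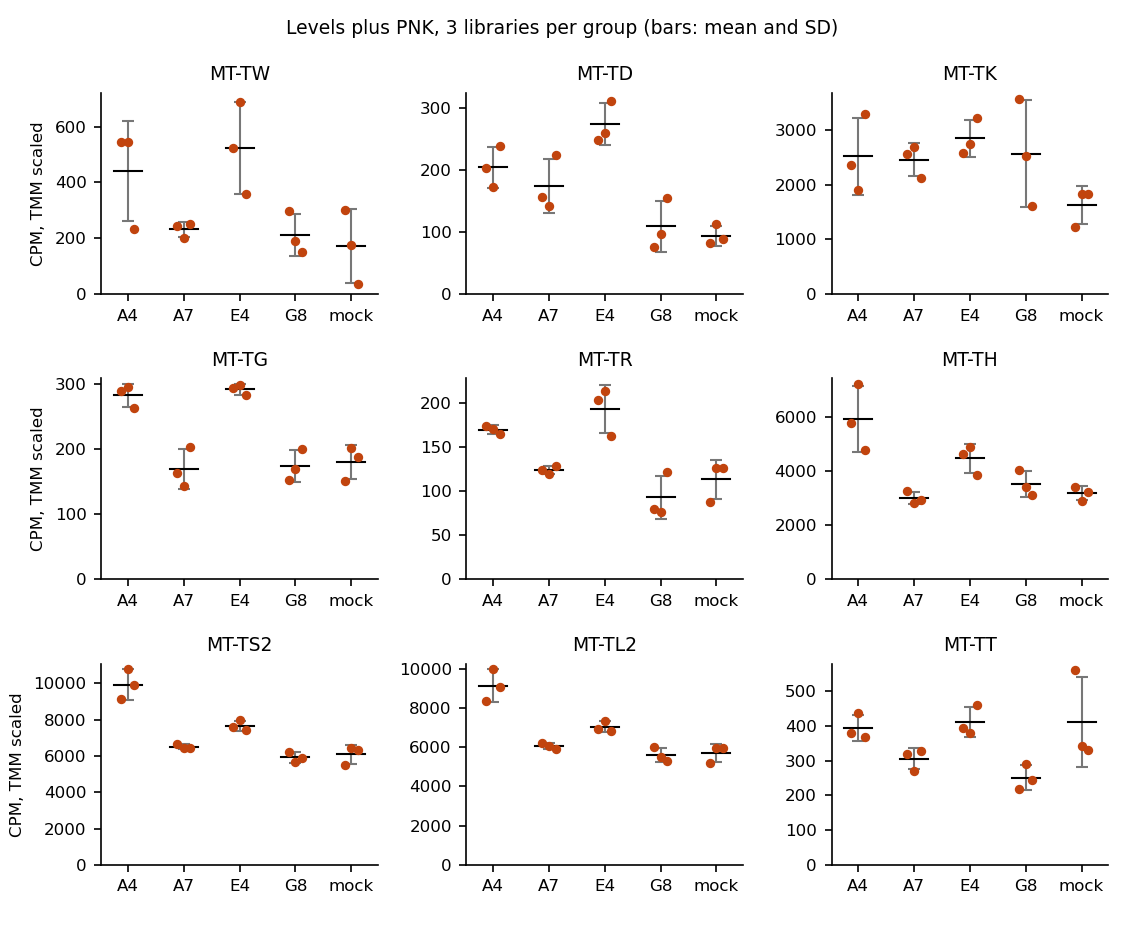
TMM-scaled CPM of each of the 9 tRNAs in plus PNK libraries of A4, A7, E4, G8 and mock, 3 points per group with mean and SD, each axis from 0. MT-TR and MT-TG lie higher in A4 and E4 than in A7, G8 and the libraries labelled mock, while MT-TK shows wide spread within groups.

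These group differences lean on G8 libraries 1 and 2 and on the scaling. Without the pair, G8 was left with 1 library, assumed to vary like the other groups, and no member was called for A4 over G8 or E4 over G8; E4 over G8 then gave 0.84 for MT-TD (adjusted p = 0.176), while A4 over A7 gave 4 calls. With library totals alone, A4 over G8 gave 0 calls, E4 over G8 3 and A4 over A7 0. Results with the miRNA factors are left out here. Those factors counted a library's miRNA share more than once, and G8 libraries 1 and 2 hold little miRNA. The replicate block left 5 calls for A4 over G8. As shares of the 22 tRNAs, 1 of the 9 differed across the THP-1 groups plus PNK (3 of the 22 did, 13.6%): MT-TS2 had 18.4%, 20.5% and 19.2% in A4, 18.6%, 19.5% and 18.2% in A7, 16.7%, 16.6% and 16.6% in E4 and 20.5%, 20.2% and 19.2% in G8 (exact permutation test, adjusted p = 0.0443), with E4 below the others. That call ended without G8 libraries 1 and 2 (adjusted p = 0.0673) and when A4 library 3, A7 library 1 or 3, any E4 library or G8 library 1 or 2 was left out (adjusted p up to 0.101).

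Minus PNK, 1 of the 9, the tryptophan tRNA MT-TW, differed across the THP-1 groups, against 32.5% of features. It had 30.7, 30.5 and 19.9 CPM in A4, 32.4, 28.5 and 21.5 in A7, 30.2, 43.6 and 23.96 in E4 and 17.4, 11.8 and 13.1 in G8, so G8 lay below all others. It was higher by 1.08 on the log2 scale in A4 (SE 0.313, adjusted p = 0.0290), 1.10 in A7 (SE 0.313, adjusted p = 0.0255) and 1.31 in E4 (SE 0.315, adjusted p = 0.0214) than in G8, each 1 of 9 members called against 23.2%, 26.4% and 22.1% of features called and 15.2%, 15.5% and 12.8% called higher. No member was called between A4 and A7, A4 and E4 or A7 and E4 (11.5%, 0.888% and 0.111% of features called), none had an unadjusted p under 0.05 there, and DESeq2 called none. MT-TW was also the only one of the 22 whose share passed the test (4.55% of the 22): 0.971%, 0.956% and 0.746% in A4, 0.715%, 0.823% and 0.850% in A7, 1.04%, 1.503% and 0.924% in E4 and 0.546%, 0.383% and 0.611% in G8 (exact permutation test, adjusted p = 0.0371). Without G8 libraries 1 and 2 MT-TW was still higher than in the remaining G8 library, by 0.90, 0.86 and 1.20, with no call (adjusted p = 0.168, 0.242 and 0.139). Leaving out G8 library 2 alone ended the 3 calls (adjusted p = 0.127, 0.0973 and 0.0780). They also ended without A4 library 1 or 2, A7 library 2 or E4 library 1 for A4, A7 library 1 or 2 for A7 and any E4 library for E4. The call in share ended without A4 library 1 or 2, any A7 library, E4 library 2 or G8 library 1 or 2 (adjusted p up to 0.174), and the edgeR call across the groups without library 1 or 2 of any group (up to 0.135). Plus PNK the MT-TW shares of the 4 groups overlapped (adjusted p = 0.243). MT-TW had only 63 to 500 counts per minus PNK library, and the counts of MT-TD, MT-TG and MT-TR were as low, at 118 to 356.

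The third comparison sets the THP-1 groups against the libraries labelled mock. Plus PNK, 4 of the 9 were higher in A4 (MT-TD, MT-TG, MT-TH and MT-TS2, against 11.3% of features called and 8.36% called higher) and 3 in E4 (MT-TD, MT-TG and MT-TR, against 8.01% and 5.44%). Among those called MT-TD had the largest value in both, a log2 fold change of 1.12 in A4 (SE 0.267, adjusted p = 0.0112) and 1.54 in E4 (SE 0.270, adjusted p = 0.00200), and MT-TG was the least, at 0.65 (SE 0.202, adjusted p = 0.0456) and 0.69 (SE 0.202, adjusted p = 0.0424). MT-TD had 203, 172 and 238 CPM in A4 and 248, 260 and 311 in E4, against 81.6, 112 and 88.0 in mock, with no overlap. MT-TG had 289, 296 and 262 CPM in A4 and 293, 299 and 282 in E4, against 151, 202 and 187 in mock. None was called in A7 (5.01% of features) or G8 (5.49%), where 1 and 2 had an unadjusted p under 0.05 and DESeq2 called 1 in each. With library totals the A4 calls numbered 0 and the E4 calls 1. Results with the miRNA factors are again left out, as those factors counted a library's miRNA share more than once. The MT-TD call in A4 ended without mock library 3 (adjusted p = 0.0524), and that in E4 held with each of the 15 libraries left out. The MT-TG call held in 1 of 15 such fits in A4 and 6 of 15 in E4 (adjusted p up to 0.134 and 0.127). Over these fits the A4 calls numbered 0 without mock library 3, 6 without G8 library 3 and 1 to 3 in the rest, and the E4 calls 5 without G8 library 3 and 1 to 3 in the rest. MT-TW spread most among the libraries labelled mock, at 300.1, 176 and 35.9 CPM.

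Minus PNK, no member was called against the libraries labelled mock in A4 (1.30% of features called), A7 (0.378%), E4 (3.89%) or G8 (26.7%). In edgeR 2, 2, 2 and 1 members had an unadjusted p under 0.05, and DESeq2 called 1, 0, 2 and 1. The log2 fold changes of the 9 ran between -0.93 and 0.81 in A4, -0.81 and 0.84 in A7, -1.19 and 1.08 in E4 and -0.41 and 0.89 in G8, at a biological coefficient of variation of 39.1%, against 24.1% plus PNK. Nearest to the threshold was MT-TW in E4, at 1.08 (adjusted p = 0.0545).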

How the data were processed

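The deposited table holds, for 30 libraries (3 per group), unnormalized whole-number counts for each annotated row. Per the submitters' processing notes, the authors used Trim Galore, FastQC, Bowtie2 2.3.5.1, SAMtools 1.9, deepTools 3.2.1, bedtools 2.28.0 and GRCh38; the handling of reads with several alignments is not stated in those notes. Per the labels' protocols, small RNA was prepared with the mirVana PARIS and NEBNext Small RNA kits. From the 175946 rows a set of 85719 without overlaps was taken, small structured RNAs first; columns with no sample numbered 0. The tests used edgeR 4.0.16 under R 4.3.3 (TMM factors, filterByExpr, Benjamini-Hochberg threshold 0.05): each group's plus against minus PNK libraries over 6 libraries, the THP-1 groups over 12, and those against mock over 15. DESeq2 1.42.0, other factors, no filter, every row, a replicate block and leaving out libraries were alternatives. The steps were tested on simulated counts. Shares were tested by exact permutation: arms within groups (3200000 assignments), or an F statistic over 15400 partitions of 12 libraries, whose smallest p is 6.49e-05.

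Fold changes are given for the called members with the largest and smallest values. The members, lists and rules were chosen with earlier results of these data known. Whether replicate numbers pair libraries was checked on residuals: all 3 correlations exceeded 0.1 for A4 and E4 (0.41 to 0.74), A4 and G8 (0.11 to 0.47) and A7 and mock (0.15 to 0.49) minus PNK, and for the G8 arms (0.12 to 0.21). Minus PNK all 3 were negative for A4 and mock (-0.77 to -0.41), E4 and mock (-0.67 to -0.30) and G8 and mock (-0.45 to -0.20). Sequences are from GENCODE transcripts.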

Additional observations from a re-analysis of the deposited data

How the results depend on the processing

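Counts of members called, of 45 for the arms, 54 for pairs, 36 against mock and 9 otherwise, moved as follows. Those with miRNA factors are listed as run. These factors counted a library's miRNA share more than once, so they overstate a scaling to miRNA. For plus against minus PNK the 18 calls became 45 with library totals or miRNA factors and 28 (3 higher, 25 lower) with every deposited row, where the 18 are 13 higher and 5 lower (18 DESeq2 factors, 24 DESeq2 test, 26 no filter, 21 replicate block; 15 to 21 leaving out a library). The fit without G8 libraries 1 and 2 was not run there, as it leaves 1 library an arm. Across THP-1 groups minus PNK the 1 call became 0 with DESeq2 factors, no filter, every row or without G8 libraries 1 and 2, 3 with library totals, 9 with miRNA factors and 2 with DESeq2 (0 to 3 leaving out a library, 3 without G8 library 3). Plus PNK the 6 became 1 with library totals, 3 without G8 libraries 1 and 2 and 3 to 8 leaving out a library (3 without E4 library 2 or G8 library 2). Pairs minus PNK, 3 calls, gave 7 with library totals or DESeq2, 27 with miRNA factors, 0 with no filter or without G8 libraries 1 and 2, 1 with every row and 0 to 9 leaving out a library (9 without G8 library 3). Pairs plus PNK, 15 calls, gave 3 with library totals, 27 with miRNA factors, 7 with no filter, 4 without G8 libraries 1 and 2 and 6 to 17 leaving out a library (6 without E4 library 1 or G8 library 1 or 2). Against mock minus PNK, 0 calls, there were 1 with DESeq2 factors or library totals, 9 with miRNA factors, 4 with DESeq2, 2 without G8 libraries 1 and 2 and 0 to 6 leaving out a library (6 without G8 library 3). Against mock plus PNK, 7 calls, there were 2 with library totals, 4 with no filter, 11 with DESeq2 and 1 to 13 leaving out a library (1 without mock library 3, 13 without G8 library 3). Of shares, the 7 arm calls gave 6 to 7 leaving out a library and 6 with the replicate block. The 1 across THP-1 groups became, minus PNK, 0 as a share of the 9, 6 of the library, 2 with the replicate block, 0 without G8 libraries 1 and 2 and 0 to 3 leaving out a library, and plus PNK 0, 4, 4, 0 and 0 to 4.

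Signs of named values turned as follows. Turns with miRNA factors come from factors that counted a library's miRNA share more than once. Whether a single weighting would turn these signs was not tested. With every row, MT-TS2 in A4 turned to -0.28 and MT-TD in E4 to -0.39 between the arms. With miRNA factors MT-TW turned to -3.15, -4.20 and -3.74 in A4, A7 and E4 over G8 minus PNK (medians of all features -3.73, -4.84 and -4.63) and to -1.64 in A4 over G8 plus PNK, MT-TT to -2.01 and -2.41 in A4 and E4 over G8, and MT-TD to -1.53 in E4 over G8. MT-TT in A7 turned to 2.305 (library totals) and 11.75 (miRNA factors) and MT-TD in mock to 2.14 and 12.53 between the arms. Over mock plus PNK miRNA factors gave -0.22 and -0.17 for MT-TD and -0.64 and -1.04 for MT-TG in A4 and E4. The MT-TS2 share of the 9 changed by -3.88 points plus PNK, and as a share of the library MT-TD, MT-TR, MT-TH and MT-TT rose by 0.0148, 0.0121, 0.350 and 0.0305 percentage points plus PNK. The cause was not tested. With the replicate block, pairs gave 3 calls minus PNK and 11 plus PNK, and comparisons with mock 0 and 6. Of the values of named members under alternatives, those with the miRNA factors included, 534 kept direction and call, 172 lost the call and 22 turned. The MT-TL2 arm difference in share kept its call under all alternatives run. MT-TW, MT-TD, MT-TG and MT-TR had 63 to 500 counts per minus PNK library.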

Other observations

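Beside light-strand genes, MT-TD had 0.789 to 1.15 counts per MT-TS1 count plus PNK (median 1.01) and 1.24 to 2.47 minus PNK (median 1.54), with no overlap. MT-TT had 0.332 to 0.626 counts per MT-TP count plus PNK (median 0.403) and 0.232 to 0.408 minus PNK (median 0.300), and MT-TW had 0.461 to 0.950 per MT-TA count plus PNK (median 0.827) and 0.249 to 0.806 minus PNK (median 0.631); both overlapped.

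Among 9193 other features plus PNK, those whose log2 CPM followed the mean of the 9 most closely over 15 libraries were SNORD100, a C/D snoRNA (Pearson r 0.94), an unnamed nuclear tRNA row (0.92) and the nuclear lysine tRNA TRK-TTT3-3 (0.91). Among 1843 minus PNK they were RN7SK (0.77), the long non-coding lnc-DPYD-8 (0.76) and a signal recognition particle RNA row (0.76). These values pool 5 groups, share library and depth, and were the highest of many, so they describe the libraries. MT-TS2 and MT-TL2 had r 0.996 with each other plus PNK, and MT-TH and MT-TS2 0.91 minus PNK. The rows of both pairs touch and can share reads, though the least share for MT-TL2 plus PNK was 0% in E4 libraries 1 and 2.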
